A study of Mus musculus with 6 samples.

Results

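The interleukin 1 and 18 axis was described across 10 genes: the ligand genes Il1a, Il1b and Il18, the receptor antagonist gene Il1rn, the receptor genes Il1r1, Il1r2, Il1rap, Il1rl1 and Il18rap, and the processing enzyme gene Casp1. A gene was taken where an array probe set carried exactly 1 symbol equal to its own, and 8 of the 10 genes were found in this way among 19938 genes. Il1r1 and Il1rl1 matched no such probe set, so no value is given for them. Each of the 8 genes had 1 probe set. Values are log2 expression, so that a gene 1 unit higher is 2-fold more abundant.

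Interleukin 1 alpha and beta are inflammatory cytokines, and the beta form is made mainly by monocytes, macrophages and neutrophils. They bind a receptor made of the chain encoded by Il1r1 and the shared accessory chain encoded by Il1rap, which passes the signal through Myd88 and Irak kinases to NF-kB. The system carries its own brakes, since the Il1rn product occupies the receptor without signalling and the Il1r2 product binds the ligand as a decoy. The beta form and interleukin 18 are made as inactive precursors that caspase-1 cleaves inside inflammasomes, and interleukin 18 signals through a receptor pair that includes the Il18rap product. In bone marrow, interleukin 1 is known to drive blood progenitors towards myeloid cells.

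RNA came from bone marrow cells of 6 mice, taken when disease began, with 1 Affymetrix whole-transcript array per mouse. Lethally irradiated CD45.1+ recipients had received CD45.2+ LSK cells (a fraction that holds blood stem and progenitor cells) transduced with Meis1 and a HoxA9 construct that carries GFP. In the HoxA9wt/Meis1 group (3 mice) this was HoxA9wt-GFP, and in the HoxA9AA/Meis1 group (3 mice) HoxA9AA-GFP. Meis1, the irradiation and the transplant are therefore shared by both groups, no marrow without the introduced genes was analysed here, and the labels do not give the age of the mice or the meaning of AA. The labels name whole marrow cells and no sort, so that host cells and donor cells of every kind contribute to each value. In such bulk samples, fewer cells of a type and less RNA per cell cannot be told apart. Hoxa9 lay between 7.89 and 9.07 and Meis1 between 8.50 and 10.58 on the 6 arrays. Background was judged from 1015 olfactory receptor genes, whose median lay between 4.80 and 4.89. Bright markers of marrow myeloid cells were far above it, with S100a8 at 8.30 to 12.30 and Lyz2 at 11.59 to 13.07. Other markers were not so on every array, such as the neutrophil gene Ly6g, at 5.64 in HoxA9wt/Meis1 replicate 3.

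The widest differences between mice were in Il1b and in the decoy receptor gene Il1r2. Il1r2 had the largest difference between the groups, 3.63-fold lower on average in HoxA9AA/Meis1 marrow, and the antagonist gene Il1rn was the 1 member whose groups did not overlap, 1.21-fold higher. No member passed the test: with limma and Benjamini-Hochberg adjustment, 0 of 8 had an adjusted p under 0.05, against 0% of all 19938 genes (0 genes). At an unadjusted p under 0.05 there were 2 of 8, Il1rn higher and Il1r2 lower, where the share of all genes was 6.74%. Groups did not overlap for 1 of 8 members and for 11.4% of all genes. By their means, 2 members were higher and 6 lower in HoxA9AA/Meis1, with a median difference of −0.20 beside 0.01 over all genes. With 3 mice against 3, the exact permutation test cannot give a p below 0.1.

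**Figure D1:**
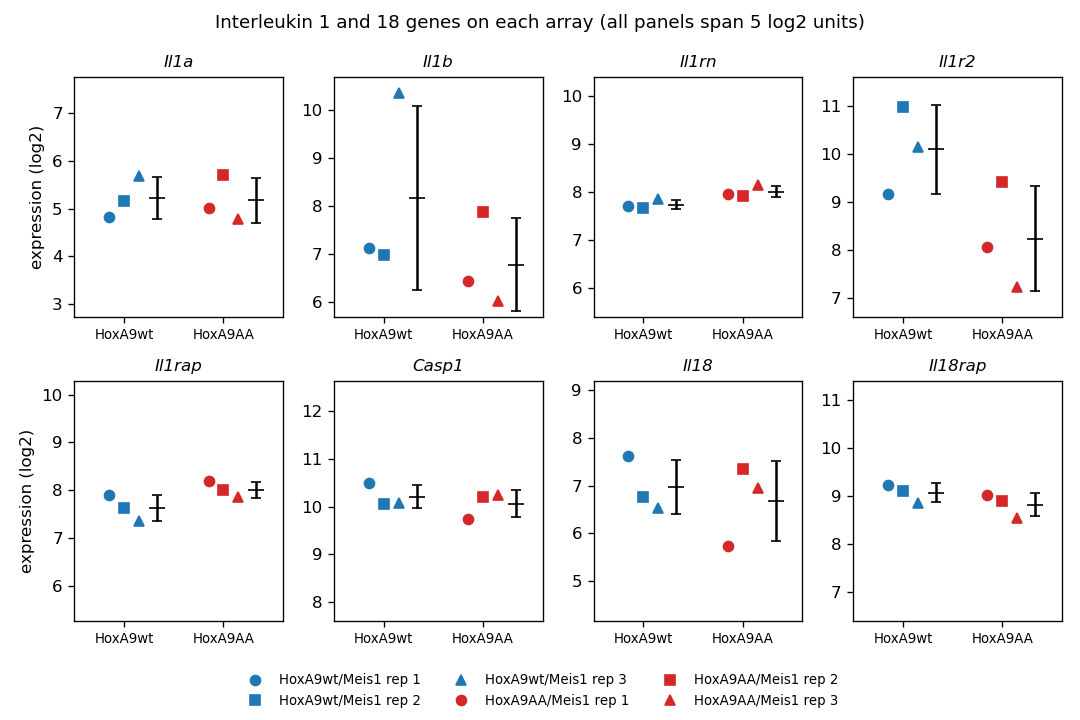
Log2 expression (vertical axis, 5 units in each panel) of the 8 measured interleukin 1 and 18 genes on each array; symbols are single mice, and bars are the group mean ± SD (n = 3). Il1b is high in 1 HoxA9wt/Meis1 mouse, at 10.37, Il1r2 is low in HoxA9AA/Meis1 replicates 1 and 3, at 8.07 and 7.23, and the groups of Il1rn lie apart.

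Il1b, the gene of interleukin 1 beta, measured 7.13, 6.98 and 10.37 in HoxA9wt/Meis1 replicates 1, 2 and 3. In HoxA9AA/Meis1 replicates 1, 2 and 3 it measured 6.44, 7.87 and 6.01. A single HoxA9wt/Meis1 mouse thus stood far above the other 5, HoxA9AA/Meis1 replicate 2 lay above the remaining HoxA9wt/Meis1 mice, and the groups overlapped. The means were 8.16 ± 1.92 (SD, n = 3) and 6.77 ± 0.97, a difference of −1.39 ± 0.98 (SE) with a 95% interval from −3.73 to 0.96 (limma, adjusted p = 0.824; exact two-sided permutation p = 0.4). Without HoxA9wt/Meis1 replicate 3 the difference was −0.28, so that most of it rested on this mouse. Leaving out no other single mouse moved it by as much as this: it was −1.98 to −1.0 without each of the other 5.

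Il1a, which encodes the alpha form and lies next to Il1b, stayed near background. It measured 4.82, 5.15 and 5.69 in HoxA9wt/Meis1 replicates 1 to 3 and 5.02, 5.70 and 4.79 in HoxA9AA/Meis1 replicates 1 to 3. The groups overlapped throughout, and the difference was −0.05 ± 0.30 (95% interval −0.77 to 0.67; limma, adjusted p = 0.993). Levels this close to background leave little room to see a decrease.

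Il1a and Il1b lie on mouse chromosome 2 (gene order from RefSeq, GRCm38.p6), where HoxA9AA/Meis1 replicate 1 had lower values over neighbouring genes. Among the 40 nearest genes around Il1b with a HoxA9wt/Meis1 mean of at least 7, the median relative to the HoxA9wt/Meis1 mean was −0.41 in HoxA9AA/Meis1 replicate 1. This filter used the HoxA9wt/Meis1 mice only, so genes high only in HoxA9AA/Meis1 were left out. No median over the whole array was taken under the same filter. The median around Il1b was −0.03 in HoxA9AA/Meis1 replicate 2, 0.11 in replicate 3, and between −0.05 and 0.03 in the HoxA9wt/Meis1 mice. Il1b itself stood at −1.72, −0.29 and −2.15 in HoxA9AA/Meis1 replicates 1, 2 and 3 on this scale, and so was lowest in a mouse whose neighbouring genes were not low. Around other members the same median in HoxA9AA/Meis1 replicate 1 was −0.36 for Casp1 on chromosome 9, where only 24 genes entered it. Around Il18rap on chromosome 1 it was −0.28. It was −0.18 for Il1rap and −0.12 for Il1r2, which lies near Il18rap on chromosome 1. For Il18 it was 0.05, and for Il1rn, elsewhere on chromosome 2, it was 0.06. Casp1 itself stood at −0.48 in that mouse and Il18rap at −0.05. Low neighbours in this mouse were therefore not limited to the Il1b locus, and their part in the values of Il1b and Casp1 was not tested. The antisense transcript gene Il1bos, next to Il1b, measured 5.24 to 5.62 on all arrays and did not follow the high value of HoxA9wt/Meis1 replicate 3.

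The 250 bases before the start sites of Il1b, Il1r2 and Il1rn are shown because these genes had the widest spread or the groups that lay apart. They are RefSeq sequences of build GRCm38.p6, 5′ to 3′ on the gene's strand: chr2:129371140-129371389 (minus strand) for Il1b, chr1:40085843-40086092 (plus strand) for Il1r2, and chr2:24345121-24345370 (plus strand) for the last of 3 listed Il1rn starts. Capitals mark matches, on either strand, to the motifs searched: TGACAG (Meis), TGATNNAT (Hox with Pbx), GAGGAA (PU.1 and other Ets factors), TTNNGCAA (C/EBP), TGANTCA (AP-1), TATAAA (the TATA box) and the NF-kB consensus.
Il1b: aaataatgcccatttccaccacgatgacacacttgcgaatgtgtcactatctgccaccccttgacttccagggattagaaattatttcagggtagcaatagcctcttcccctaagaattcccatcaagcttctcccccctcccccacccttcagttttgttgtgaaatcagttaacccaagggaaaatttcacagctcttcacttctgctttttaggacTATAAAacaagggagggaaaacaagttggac
Il1r2: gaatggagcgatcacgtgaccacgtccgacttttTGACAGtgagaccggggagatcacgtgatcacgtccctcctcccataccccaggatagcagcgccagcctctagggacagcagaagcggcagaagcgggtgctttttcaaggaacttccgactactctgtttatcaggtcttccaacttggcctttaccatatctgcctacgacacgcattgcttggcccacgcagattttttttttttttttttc
Il1rn: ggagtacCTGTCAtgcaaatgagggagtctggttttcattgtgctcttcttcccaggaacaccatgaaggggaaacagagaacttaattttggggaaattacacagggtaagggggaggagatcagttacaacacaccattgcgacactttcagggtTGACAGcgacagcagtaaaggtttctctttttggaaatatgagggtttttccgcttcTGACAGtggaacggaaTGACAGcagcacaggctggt
The Il1b window held a TATA match starting 31 bases before the start site, and no other motif searched. A TATA match at any position, on either strand, was found in 12.4% of 32851 windows of this length. The Il1r2 window held 1 Meis match, 216 bases before the start, where 15.9% of windows hold at least 1. The Il1rn window held 4 Meis matches, at 243, 93, 36 and 20 bases before the start. Of all windows, 0.03% (10 in all) hold 4 or more. This cutoff equals the window's own count, and the window held the most Meis matches of the listed Il1rn starts. The share is therefore no measure of how unusual the window is. The window of the next start upstream overlaps it and shares some of these bases. The most distant Il1rn start had an AP-1 match and no Meis match. These are matches of letters and not evidence of binding, and the probe set does not separate transcripts from the different starts.

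Il1rn, the gene of the receptor antagonist, was the steadiest member, with the smallest range over the 6 arrays (0.48). It measured 7.70, 7.66 and 7.85 in HoxA9wt/Meis1 replicates 1 to 3 and 7.96, 7.92 and 8.14 in HoxA9AA/Meis1 replicates 1 to 3. Every HoxA9AA/Meis1 mouse lay above every HoxA9wt/Meis1 mouse, though the nearest of the groups were only 7.85 and 7.92. The means were 7.74 ± 0.10 (SD, n = 3) and 8.01 ± 0.12, a difference of 0.27 ± 0.10 (SE; 95% interval 0.03 to 0.51; limma, unadjusted p = 0.0354, adjusted p = 0.731; exact two-sided permutation p = 0.1, the smallest possible). The difference was small, it did not pass the test, and it stayed between 0.20 and 0.33 when single mice were left out. Its neighbour Psd4 was also higher in all HoxA9AA/Meis1 mice, at 8.74 to 9.14 against 8.41 to 8.72.

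Il1r2, the gene of the decoy receptor, measured 9.16, 10.99 and 10.15 in HoxA9wt/Meis1 replicates 1 to 3. It measured 8.07, 9.42 and 7.23 in HoxA9AA/Meis1 replicates 1 to 3. HoxA9AA/Meis1 replicates 1 and 3 lay below all HoxA9wt/Meis1 mice, while replicate 2 lay above HoxA9wt/Meis1 replicate 1, so that the groups overlapped. The means were 10.10 ± 0.92 (SD, n = 3) and 8.24 ± 1.10, a difference of −1.86 ± 0.65 (SE) with a 95% interval from −3.43 to −0.29. The unadjusted p was 0.0270 and the adjusted p 0.731 (limma), and the exact two-sided permutation p was 0.2. The direction held when each mouse was left out, with differences from −2.45 (without HoxA9AA/Meis1 replicate 2, adjusted p = 0.145) to −1.35 (without HoxA9AA/Meis1 replicate 3).

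Il1rap, the gene of the accessory chain shared by the receptors for interleukin 1, interleukin 33 and Il1f9, measured 7.90, 7.64 and 7.36 in HoxA9wt/Meis1 replicates 1 to 3. The HoxA9AA/Meis1 values were 8.19, 8.0 and 7.85. A single pair overlapped, HoxA9wt/Meis1 replicate 1 at 7.90 and HoxA9AA/Meis1 replicate 3 at 7.85. The difference was 0.38 ± 0.16 (SE; 95% interval −0.01 to 0.77; limma, unadjusted p = 0.0549, adjusted p = 0.731). Without HoxA9wt/Meis1 replicate 3 it was 0.24, and without HoxA9wt/Meis1 replicate 1 it was 0.51.

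Il18rap, the gene of the accessory chain of the interleukin 18 receptor, measured 9.24, 9.11 and 8.85 in HoxA9wt/Meis1 replicates 1 to 3 and 9.02, 8.89 and 8.55 in HoxA9AA/Meis1 replicates 1 to 3. The values overlapped, and the difference was −0.25 ± 0.16 (95% interval −0.63 to 0.14; limma, adjusted p = 0.814). It was −0.11 without HoxA9AA/Meis1 replicate 3. Il18rap is known from NK and T cells. Of the 17 T and NK cell markers matched, 5 (Cd3d, Klrb1c, Ncr1, Klrd1 and Eomes) lay within 1 of the olfactory receptor median on all arrays, and 12 did not. The brightest were Nkg7 at 7.39 to 11.87, which is also on the primary granule list, Cd3e at 7.07 to 7.53 and Cd8a at 6.72 to 7.19. The summed level of the list was 10.48 to 10.78 in HoxA9wt/Meis1 and 10.59 to 12.31 in HoxA9AA/Meis1. This sum was dominated by Nkg7 in HoxA9AA/Meis1 replicates 1 and 3, where Nkg7 stood at 11.87 and 10.94. Averaged over the list, values relative to the HoxA9wt/Meis1 mean were −0.10 to 0.12 in HoxA9wt/Meis1 and 0.04 to 0.28 in HoxA9AA/Meis1. The part of T and NK cells in the Il18rap values was not tested. The ligand-binding partner chain Il18r1, its neighbour on chromosome 1, measured 6.38, 7.05 and 5.76 in HoxA9wt/Meis1 and 6.57, 7.42 and 5.80 in HoxA9AA/Meis1 replicates 1 to 3. Both groups thus spanned nearly the same range of Il18r1 (difference 0.20 ± 0.48, limma, adjusted p = 0.972).

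Casp1, the gene of the protease that cuts both precursors, measured 10.50, 10.06 and 10.08 in HoxA9wt/Meis1 replicates 1 to 3 and 9.73, 10.19 and 10.25 in HoxA9AA/Meis1 replicates 1 to 3. HoxA9AA/Meis1 replicate 1 was lowest and the other mice of that group lay within the HoxA9wt/Meis1 range. The difference was −0.16 ± 0.19 (95% interval −0.60 to 0.29; limma, adjusted p = 0.918), and its sign turned to 0.01 without HoxA9AA/Meis1 replicate 1.

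Il18 measured 7.61, 6.77 and 6.52 in HoxA9wt/Meis1 replicates 1 to 3 and 5.74, 7.34 and 6.95 in HoxA9AA/Meis1 replicates 1 to 3. Here too HoxA9AA/Meis1 replicate 1 was the lowest of all mice, and the other HoxA9AA/Meis1 mice lay inside the HoxA9wt/Meis1 range. The difference was −0.29 ± 0.46 (95% interval −1.40 to 0.82; limma, adjusted p = 0.946). It turned to 0.18 without HoxA9AA/Meis1 replicate 1, to 0.03 without HoxA9wt/Meis1 replicate 1, and to 0.12 with array weights. The 95% intervals of Il1b, Il1r2 and Il18 include differences of more than 2-fold and smaller ones. These data thus neither show nor exclude differences of more than 2-fold for these genes.

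**Figure D2:**
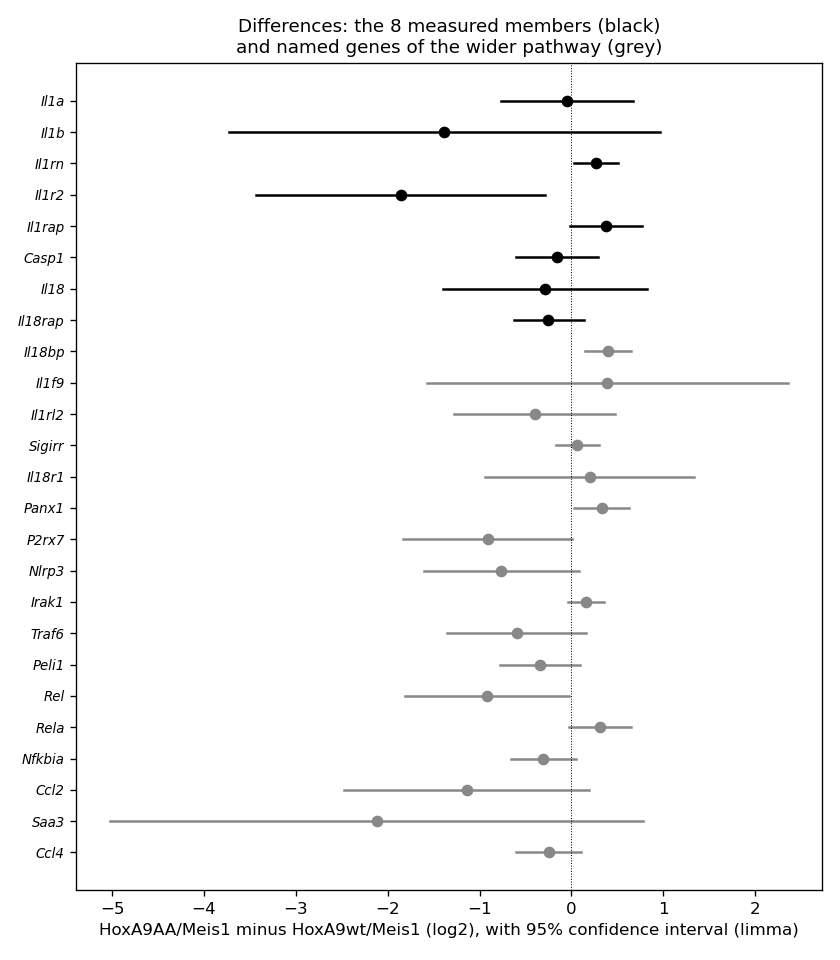
Differences between the group means (HoxA9AA/Meis1 minus HoxA9wt/Meis1, log2, horizontal axis) with 95% confidence intervals from limma, for the 8 measured members (black) and 17 named genes of the wider pathway (grey). The intervals of Il1rn (0.03 to 0.51) and Il1r2 (−3.43 to −0.29) lie on 1 side of 0 before any adjustment, and none of the genes passed after adjustment over all genes.

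The rest of the pathway was taken from 6 lists, with 71 measured genes. Of these, 0 passed (limma, adjusted p under 0.05). At an unadjusted p under 0.05, 2 were higher (Il18bp and Panx1, where the share of all genes was 4.15%) and 1 was lower (Rel, with 2.59% of all genes). Their median difference was −0.06, and groups lay apart upwards in 5 and downwards in 4 of the 71 genes, beside 6.60% and 4.80% of all genes. Genes described below are those with the smallest p in each list unless stated, and none passed the adjustment.

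Of the other ligands and soluble inhibitors, 6 of 7 genes were measured. Il18bp, which encodes the secreted protein that neutralises interleukin 18, measured 8.16, 8.14 and 8.22 in HoxA9wt/Meis1 and 8.75, 8.49 and 8.47 in HoxA9AA/Meis1 replicates 1 to 3. The groups lay apart, and the difference was 0.40 ± 0.10 (SE; 95% interval 0.15 to 0.65; limma, unadjusted p = 0.00770, adjusted p = 0.731; exact two-sided permutation p = 0.1). Il1f9, the array's name for Il36g, an epithelial and myeloid cytokine of the family, measured 9.40, 10.78 and 7.29 in HoxA9wt/Meis1 and 9.12, 9.82 and 9.71 in HoxA9AA/Meis1 replicates 1 to 3. The SD was 1.76 in the first group and 0.38 in the second. HoxA9wt/Meis1 replicate 3 was lowest of all mice, the same mouse in which Il1b was highest. Il33, Il1f6 (Il36a) and Il1f8 (Il36b) lay within 1 of the olfactory receptor median on all arrays.

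All 5 other receptor chains were measured, and none had an unadjusted p under 0.05. Il1rl2, the receptor chain for Il1f9 and its relatives, differed by −0.40 and was lowest in HoxA9AA/Meis1 replicate 3, at 6.17 against 6.95 to 7.65 in HoxA9wt/Meis1. Sigirr, which dampens signals of this receptor family, hardly varied, at 7.19 to 7.42 over the 6 arrays. Il1rapl1 and Il1rapl2 lay near background.

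Inflammasome and pore genes, 18 of 19 measured, had 5 higher and 13 lower means in HoxA9AA/Meis1, with a median difference of −0.20. P2rx7, the ATP-gated channel that triggers the NLRP3 inflammasome, measured 8.92, 8.63 and 9.08 in HoxA9wt/Meis1 and 7.47, 8.89 and 7.54 in HoxA9AA/Meis1 replicates 1 to 3 (difference −0.91 ± 0.38, limma, adjusted p = 0.731). Nlrp3, the sensor itself, measured 8.56, 8.03 and 8.66 against 7.06, 8.39 and 7.50 (difference −0.77 ± 0.35, limma, adjusted p = 0.731). Both genes were low in HoxA9AA/Meis1 replicates 1 and 3, while replicate 2 lay among the HoxA9wt/Meis1 mice. Panx1, a channel that releases ATP, lay apart in the other direction, at 7.36 to 7.49 against 7.54 to 7.96. Without HoxA9AA/Meis1 replicate 2, 8 of the 18 genes had an unadjusted p under 0.05 and 0 passed the adjustment (limma). In that setting 14.1% of all genes had an unadjusted p under 0.05 and 0.241% (48 genes) passed. The count of inflammasome genes with an unadjusted p under 0.05 was 1 with all arrays. It was 0 or 1 when any other single mouse was left out. Aim2, a DNA sensor with groups that barely parted (10.29 against 10.28), Casp8 at 11.03 to 11.40 and the adaptor gene Pycard at 7.94 to 8.76 were named outside the rule.

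Receptor signalling genes, 16 of 18 measured, had no member with an unadjusted p under 0.05. Irak1, a kinase directly behind the receptor, was 8.52 to 8.64 in HoxA9wt/Meis1 and 8.70 to 8.80 in HoxA9AA/Meis1 (difference 0.16). The ubiquitin ligase genes Traf6 and Peli1 differed by −0.59 and −0.34, and Traf6 was lowest in HoxA9AA/Meis1 replicate 1, at 7.57 against 8.61 to 9.07 in the other mice. Of 10 measured NF-kB genes, Rel measured 10.16, 10.08 and 10.40 in HoxA9wt/Meis1 and 8.44, 9.97 and 9.47 in HoxA9AA/Meis1 replicates 1 to 3 (difference −0.92 ± 0.37, limma, unadjusted p = 0.0439, adjusted p = 0.731). Rela was 9.19 to 9.45 and 9.48 to 9.90 in the same groups, and the inhibitor gene Nfkbia differed by −0.31.

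**Figure D3:**
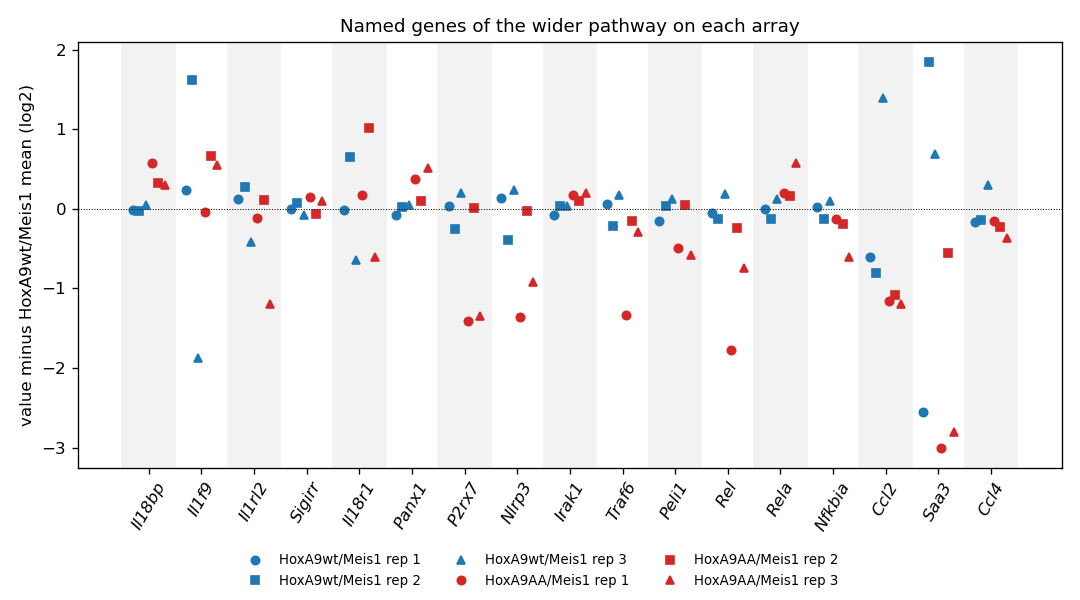
Values relative to the HoxA9wt/Meis1 mean (log2, vertical axis) of the 17 named genes of the wider pathway on each array; symbols are single mice. Il18bp lies apart upwards in all HoxA9AA/Meis1 mice, P2rx7 and Nlrp3 are low in HoxA9AA/Meis1 replicates 1 and 3, and Ccl2 is high in the HoxA9wt/Meis1 mouse with the highest Il1b.

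All 16 genes that interleukin 1 or 18 is known to induce were measured, and 0 had an unadjusted p under 0.05 (limma). Ccl2, a monocyte chemoattractant, measured 7.0, 6.80 and 9.0 in HoxA9wt/Meis1 and 6.44, 6.52 and 6.41 in HoxA9AA/Meis1 replicates 1 to 3 (difference −1.14 ± 0.56, limma, adjusted p = 0.741). Its highest value was in the mouse with the highest Il1b, HoxA9wt/Meis1 replicate 3. In that mouse Cxcl2, a neutrophil chemoattractant named outside the rule, stood at 7.32 against 5.13 to 5.83 in the other 5, and Tnf, named likewise, at 8.40 against 7.39 to 7.89. The acute phase gene Saa3 measured 6.24, 10.64 and 9.48 in HoxA9wt/Meis1 and 5.78, 8.24 and 5.98 in HoxA9AA/Meis1 replicates 1 to 3. Il6, Csf2 and Cxcl3 lay within 1 of the olfactory receptor median everywhere. Averaged over the 16 genes, the values lay at −0.38, 0.01 and 0.37 relative to the HoxA9wt/Meis1 mean in HoxA9wt/Meis1 replicates 1 to 3 and at −0.26, −0.16 and −0.35 in HoxA9AA/Meis1 replicates 1 to 3.

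The average of the monocyte markers was low in the same mice as Il1b and Il1r2, while neutrophil markers varied in their order of mice. The 17 monocyte genes matched stood at −1.22, −0.03 and −0.87 in HoxA9AA/Meis1 replicates 1, 2 and 3, on average relative to the HoxA9wt/Meis1 mean, and at −0.20 to 0.17 in the HoxA9wt/Meis1 mice. Their summed level (log2 of the sum of linear values) was 15.27 to 15.45 in HoxA9wt/Meis1 and 14.29 to 15.25 in HoxA9AA/Meis1, and none was near background. Il1b and Il1r2 were likewise lowest in HoxA9AA/Meis1 replicates 1 and 3. By their means, 16 of the 17 monocyte genes were lower in HoxA9AA/Meis1 and 1 higher. Groups lay apart downwards in 4 and upwards in 0 of them. These genes did not move alike in replicate 3. There Clec4a3 stood at 7.20 against 10.73 to 11.09 in HoxA9wt/Meis1, while F13a1, at 11.95, lay within its HoxA9wt/Meis1 range of 11.91 to 12.20. The 18 mature neutrophil genes matched stood at 0.44, 0.76 and −1.19 in HoxA9wt/Meis1 and at 0.78, 0.95 and −0.51 in HoxA9AA/Meis1 replicates 1 to 3, with summed levels of 13.86 to 15.22 and 13.56 to 15.12. The list's average had another order of mice than Il1r2, which was at 10.15 in HoxA9wt/Meis1 replicate 3, where the list was lowest, and at 8.07 in HoxA9AA/Meis1 replicate 1, where it was high. By their means, 12 of the 18 neutrophil genes were higher in HoxA9AA/Meis1 and 6 lower. Groups lay apart upwards in 3 and downwards in 1 (Mmp8), beside 6.60% and 4.80% of all genes. Single members among the lower genes, here Chil3 and Mmp8, went with Il1r2. Chil3, a chitinase-like protein and the brightest gene of the list, had the same order of mice as Il1r2, at 12.50, 12.95 and 12.66 in HoxA9wt/Meis1 and 12.04, 12.62 and 9.56 in HoxA9AA/Meis1 replicates 1 to 3. The collagenase gene Mmp8, named after its values were seen, was also lowest in HoxA9AA/Meis1 replicates 1 and 3, at 8.07 and 6.07 against 11.44 to 12.49 in the other mice. Its difference between the groups, −3.54, was the lowest of all 19938 genes. The part of monocyte or neutrophil content in the Il1b and Il1r2 values was not tested.

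The averages of the primary granule list and of the stem and progenitor list were highest in HoxA9AA/Meis1 replicates 1 and 3. In these mice Il1b, Il1r2 and the monocyte list were lowest. Primary granule genes (9 matched) stood on average at 1.26 and 0.38 in these mice, against −0.34 to 0.28 elsewhere. The genes of this list did not move together in replicate 3. Mpo and Elane were there at their lowest of the 6 mice, at 10.97 and 9.55. Ms4a3 was at its highest, at 11.87, and Nkg7 stood at 10.94 against 7.39 to 8.64 in HoxA9wt/Meis1. Stem and progenitor genes (11 matched) stood on average at 0.28 and 0.95 in HoxA9AA/Meis1 replicates 1 and 3, against −0.28 to 0.15 elsewhere. Flt3 and Meis1, which was also introduced, were lowest in replicate 1, at 6.92 and 8.50. Both were highest in replicate 3, at 10.85 and 10.58. The part of these cells in the members' values was not tested. Erythroid genes (9 matched) were high in HoxA9wt/Meis1 replicate 2, at 0.77 against −0.68 to −0.25. T and NK cell, B cell, and mast cell, basophil and eosinophil genes stayed between −0.20 and 0.56 in all mice.

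**Figure D4:**
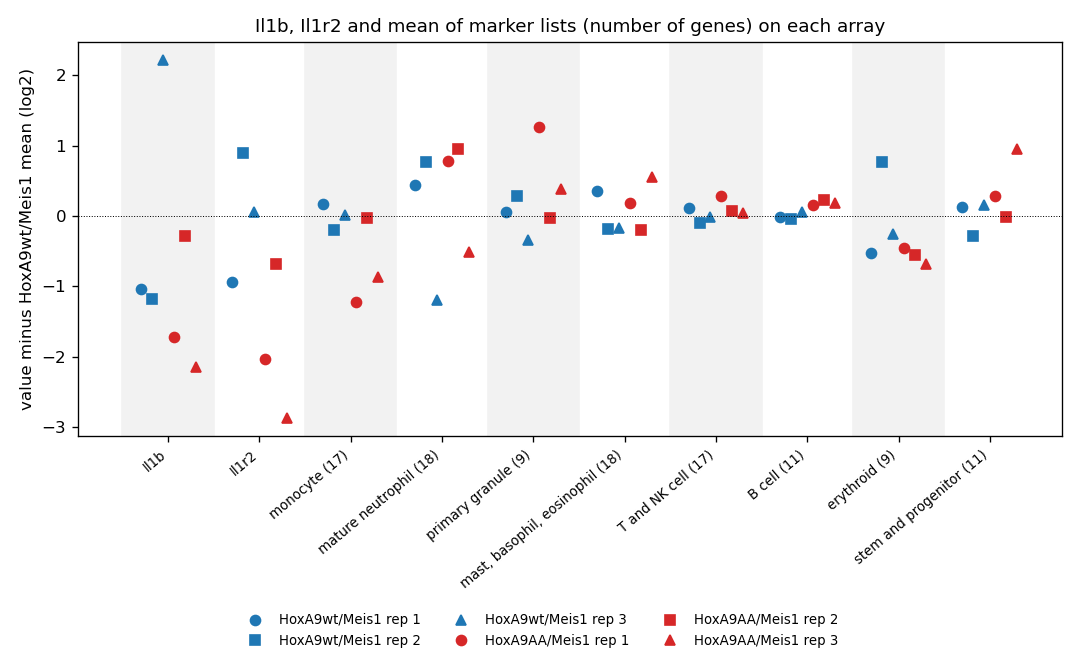
Values of Il1b and Il1r2, and averages over 8 marker lists of marrow cell types (number of genes in brackets), relative to the HoxA9wt/Meis1 mean (log2, vertical axis) on each array; symbols are single mice. The monocyte list is low in HoxA9AA/Meis1 replicates 1 and 3, at −1.22 and −0.87, and the mature neutrophil list is lowest in HoxA9wt/Meis1 replicate 3, at −1.19.

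Genes whose pattern over the 6 arrays was most like a member's were sought for members with a range of at least 2, which were Il1b (4.36) and Il1r2 (3.76). The measure was the mean absolute difference between values centred on each gene's mean. For Il1r2 the nearest genes were Mcemp1 (0.33), Bmpr2 (0.41) and Scrg1 (0.43). Mcemp1, a membrane protein of myeloid cells, measured 9.92, 10.60 and 10.52 in HoxA9wt/Meis1 and 9.03, 10.09 and 7.68 in HoxA9AA/Meis1 replicates 1 to 3. Its order of mice was that of Il1r2, with HoxA9wt/Meis1 replicate 2 highest and HoxA9AA/Meis1 replicate 3 lowest in both. For Il1b the nearest were Ccl24 (0.57), Zfp36l1 (0.58) and Tas2r143 (0.58), which were less close by this measure than the nearest genes of Il1r2. Ccl24, an eosinophil chemoattractant, was 8.49 in HoxA9wt/Meis1 replicate 3 and 6.04 to 6.40 elsewhere, and so shared the single high mouse with Il1b and little more.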

How the data were processed

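Bone marrow RNA of 6 mice (3 in each of 2 groups) was measured on 1 array each. The deposited values are log2 expression per probe set, made by the authors with RMA in oligo, per the submitters' processing notes. RMA subtracts background, equalises the arrays' distributions and condenses probes into probe sets. Tool versions were not given in the sources used here. RMA narrows differences near background. The log2 scale was read from the range of the values. Names came from the platform annotation: 21789 of 35556 probe sets had 1 symbol, 1621 several and 12146 were not listed. The brightest probe set per gene was used. Listed genes with other names were matched through RefSeq synonyms.

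The groups were compared over all 19938 genes by a two-sided moderated linear model without a block (limma 3.58.1, run under R 4.3.3). P-values were adjusted by Benjamini-Hochberg, with a threshold of 0.05; the method was tested on simulated data. Groups follow the labels' titles. No 2 arrays were duplicates (at most 2.83% identical values). The labels call the mice biological replicates, and their number limits the precision. The members, lists and alternatives were chosen with earlier results of these data known. Named genes are all measured members, the brightest markers, the 3 nearest in pattern, and chromosome neighbours. In each pathway list they are up to 3 genes with the smallest p and a group mean of at least 6. Tnf, Cxcl2, Mmp8, Elane, Ly6g, Clec4a3, Aim2, Casp8, Pycard and genes near background were named after their values were seen. Neighbour medians over up to 20 genes on each side were added after seeing the data. The motifs were chosen by hand. Figures were drawn with matplotlib 3.10.9.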

Additional observations from a re-analysis of the deposited data

How the results depend on the processing

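With limma, 0 of the 8 members and 0 of the 71 wider pathway genes had an adjusted p under 0.05 in every setting run: all arrays, each array left out, the replicate number as a block, quantile normalization, median centring, dim genes left out, probe sets averaged per gene, every probe set tested, eBayes with trend and robust, no moderation of the variance, and array weights. Over all genes tested, 48 passed without HoxA9AA/Meis1 replicate 2, 1 passed without HoxA9wt/Meis1 replicate 3, and 0 passed in the other settings. At an unadjusted p under 0.05 the count of members was 2 with all arrays and 0 to 3 otherwise. Il1b, Il1rn, Il1r2, Il1rap and Il18rap kept their direction in every setting that measured them. The direction of Il1a (−0.32 to 0.19 with single arrays left out, 0.03 after quantile normalization), Il18 (−0.62 to 0.18 with single arrays left out, 0.12 with array weights) and Casp1 (−0.25 to 0.01 with single arrays left out) turned. With the replicate number as a block the differences stayed as they were, for example −1.86 for Il1r2 (limma, adjusted p = 0.891) and 0.27 for Il1rn (adjusted p = 0.909). The unadjusted p (limma) fell for Il1r2 (0.0270 to 0.00369), Il1rap (0.0549 to 0.0219) and Il18rap (0.171 to 0.0770). It rose for Il1rn (0.0354 to 0.0575), Il1b, Casp1 and Il18. Of all genes, 5.60% had an unadjusted p under 0.05 with the block and 6.74% without it. Over all genes, deviations of same-numbered mice from their group means correlated at −0.21, −0.10 and −0.01. With 3 mice in each group this gave no sign that the numbers pair the mice, and it cannot exclude pairing. With 3 mice in each group, wide spreads such as that of Il1b limit precision, and dim genes such as Il1a lie near background.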
